A study of Homo sapiens with 9 samples.

Results

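The enzymes that build the carbohydrate antigen sialyl Lewis A, known in the clinic as CA19-9, were described across 3 pancreatic cancer sublines. The genes were chosen by name, as the rows of the deposited count table whose symbol was FUT2, FUT3, FUT5, FUT6, B3GALT5, B3GNT3, ST3GAL3, ST3GAL4, ST3GAL6 or ST6GALNAC6. All 10 were found, out of 42717 genes in the table.

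Sialyl Lewis A is a short sugar chain at the tip of glycoproteins and glycolipids. It is built on a type 1 chain, in which a galactose is joined to N-acetylglucosamine by a beta-galactosyltransferase. A sialyltransferase caps the galactose, and a fucosyltransferase then adds fucose to the N-acetylglucosamine. The finished antigen is measured in serum from patients with pancreatic cancer and is bound by E-selectin on blood vessels. People who lack a working FUT3, the Lewis enzyme, do not make it. The mRNA levels below do not measure the antigen itself.

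The study compared sublines of SUIT-2, a line derived from a human pancreatic adenocarcinoma, to ask how gene expression differs with where the cell keeps maspin, a serpin. S2-007 holds maspin in nucleus and cytoplasm, S2-028 holds it mainly in the cytoplasm, and S2-020 makes little of it. Each subline was sequenced as 3 libraries, 9 in all, of poly(A) RNA from untreated cells in the same serum-containing medium. No gene was altered in any line, each group is a single cell line, and maspin and all else that differs between the lines cannot be told apart.

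The total count per library was 71040887 to 75136834 in S2-007, 73775302 to 86253923 in S2-020 and 60328748 to 61800271 in S2-028. The labels call all 9 libraries adenocarcinoma of the pancreas. All 8 duct epithelial markers examined (KRT7, KRT8, KRT18, KRT19, EPCAM, CDH1, SOX9 and CFTR) were above a floor of 3 counts in every library. CPM is the count divided by the library's effective size, scaled with the trimmed mean of M-values (TMM). The summed level of the 8 markers in CPM was 9813 to 10145 in S2-007, 15066 to 17930 in S2-028 and only 4348 to 5492 in S2-020. The adhesion molecule E-cadherin, CDH1, was at 55.0 CPM in S2-007, 4.50 in S2-020 and 112.0 in S2-028. The summed level of 5 fibroblast markers was 2.23 to 5.68 CPM over all libraries. The summed level of 4 leukocyte markers was 39.8 to 43.6 CPM in S2-007, 7.64 to 9.18 in S2-020 and 10.3 to 12.3 in S2-028. Of these leukocyte markers, PTPRC, the pan-leukocyte antigen, did not exceed 26 counts in any library, and CD3E was at 0 counts in each S2-007 library. CD68, a lysosomal protein abundant in macrophages, made up nearly all of the sum, at 41.6 CPM in S2-007, 7.76 in S2-020 and 10.4 in S2-028. It was lower in S2-020 and S2-028 than in S2-007, and its part in the results was not tested.

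FUT3, FUT5 and FUT6 are neighbours on chromosome 19 and near copies of each other. In the GRCh38 reference, the coding sequence of FUT3 was 93.9% identical to that of FUT5 and 90.7% identical to that of FUT6, and FUT5 and FUT6 were 93.3% identical. They differ at a codon known to steer which hydroxyl group of N-acetylglucosamine receives the fucose, and thus whether a Lewis A-type structure can be made. FUT3 and FUT5 carry tryptophan there, at codons 111 and 124, and FUT6 carries arginine at codon 110. The 63 coding bases around this codon are shown because the codon sets FUT6 apart from FUT3 and FUT5. Capitals mark the codon. The windows lie in coding exons on the minus strand at chr19:5844477-5844539, chr19:5867324-5867386 and chr19:5832208-5832270. They are reference sequence, not sequence read from these cells.
FUT3: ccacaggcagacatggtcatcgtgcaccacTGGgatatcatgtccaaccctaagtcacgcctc
FUT5: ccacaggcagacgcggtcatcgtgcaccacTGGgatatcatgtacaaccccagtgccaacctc
FUT6: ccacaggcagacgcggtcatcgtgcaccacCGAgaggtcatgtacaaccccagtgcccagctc

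The 3 lines differed in the levels of these enzymes. FUT3 was highest in S2-028, B3GALT5 was highest in S2-007, and ST3GAL3 and ST6GALNAC6 were highest in S2-020. S2-020 had the lowest levels of B3GNT3, B3GALT5, FUT2 and FUT3. Differences were tested with edgeR's quasi-likelihood test on the 6 libraries of each pair of lines. A gene was called at a Benjamini-Hochberg adjusted p below 0.05 over all genes tested and a fold change of at least 1.5. All 10 genes passed the filter on low counts in each comparison. The 3 comparisons share libraries, so they are not independent of each other.

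Between S2-028 and S2-007, 5 of the 10 enzymes were called, against 18.4% of all 26371 genes tested. Only FUT3 was higher in S2-028, and B3GALT5, ST3GAL3, ST3GAL4 and ST3GAL6 were lower. The median log2 fold change of the 10 enzymes was -0.34, and that of all genes tested was 0.0020. Of all genes, 10.2% were called higher in S2-028 and 8.19% lower. Between S2-020 and S2-007, 8 of the 10 were called, against 21.6% of 26657 genes. ST3GAL3 and ST6GALNAC6 were higher in S2-020, and FUT2, FUT3, FUT6, B3GALT5, B3GNT3 and ST3GAL6 were lower. The median log2 fold change was -1.13, beside -0.053 for all genes. Of all genes, 9.57% were called higher in S2-020 and 12.1% lower. Between S2-028 and S2-020, 8 of the 10 were called, against 22.2% of 26031 genes. FUT2, FUT3, B3GALT5, B3GNT3 and ST3GAL6 were higher in S2-028, and ST3GAL3, ST3GAL4 and ST6GALNAC6 were lower. The median was 0.56, beside 0.025 for all genes. Of all genes, 12.1% were called higher in S2-028 and 10.1% lower. Libraries of the paired lines stood apart for 7, 8 and 7 of the 10 enzymes in these comparisons, against 43.7%, 48.8% and 48.6% of all genes tested. In bulk RNA, fewer cells expressing a gene and less RNA per cell cannot be told apart.

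**Figure D1:**
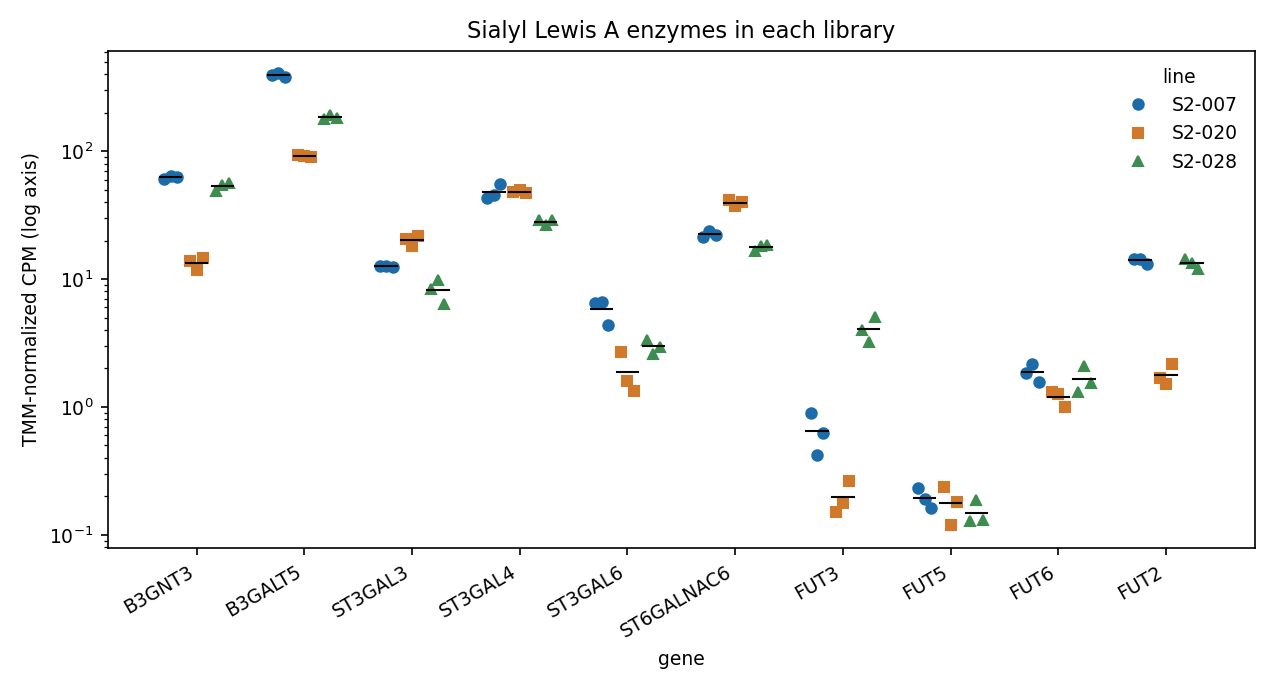
Level of each enzyme in each library, as TMM-normalized CPM on a log axis. Points are the 3 libraries of a line and black bars are their means. FUT3 stands highest in S2-028 (3.22 to 5.06 CPM), and B3GNT3, B3GALT5 and FUT2 stand lowest in S2-020.

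**Figure D2:**
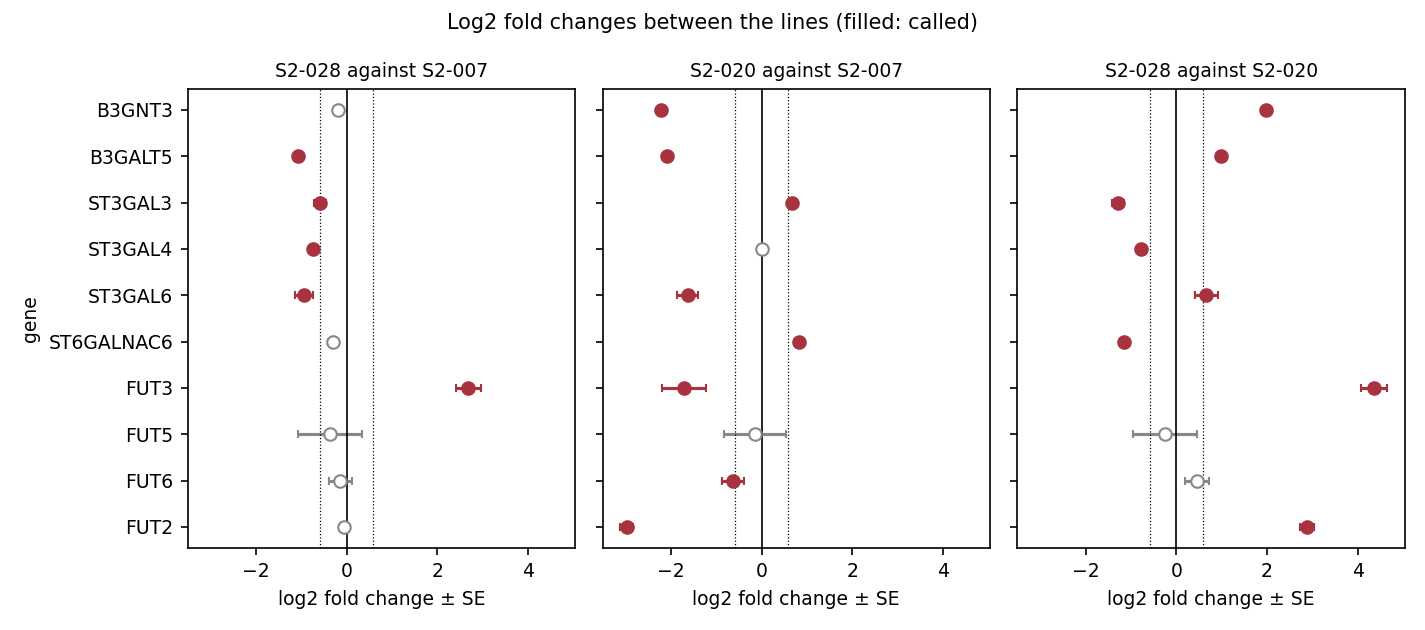
Log2 fold change ± standard error (SE) of each enzyme in the 3 comparisons, from edgeR with 3 libraries per line. Filled points passed the call, open points did not, and dotted lines mark a fold change of 1.5. FUT3 has the largest value for S2-028 against either line, at 2.68 and 4.36.

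B3GNT3 adds N-acetylglucosamine to core 1 O-glycans and so lengthens the arm on which the antigen can be built. It is encoded on chromosome 19 (chr19:17794791-17813576, GRCh38.p14). Its level was 60.3, 64.0 and 62.5 CPM in the S2-007 libraries. It was 13.9, 11.7 and 14.5 CPM in S2-020. It was 48.8, 54.4 and 56.4 CPM in S2-028. The 3 lines did not overlap, and S2-020 stood far below the others. The log2 fold change of S2-020 against S2-007 was -2.22 ± 0.0797 (SE, n = 3 per line, edgeR adjusted p = 1.08e-14). S2-028 was above S2-020 by 1.99 ± 0.0908 on the log2 scale (edgeR adjusted p = 8.87e-13). S2-028 was slightly below S2-007, at -0.20 ± 0.0689 (edgeR adjusted p = 0.0280), which was under the 1.5-fold threshold and was not called.

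B3GALT5 makes the type 1 chain itself, by adding galactose to N-acetylglucosamine (chr21:39612940-39673137). Its level was 392, 406 and 383 CPM in S2-007. It was 93.2, 92.4 and 90.0 CPM in S2-020. It was 178, 191 and 182 CPM in S2-028. Libraries of a line lay close together, with no overlap between lines. S2-007 had 4.28-fold the level of S2-020, with a log2 fold change of S2-020 against S2-007 of -2.10 ± 0.0512 (edgeR adjusted p = 2.91e-17). S2-028 lay between them, at -1.07 ± 0.0576 against S2-007 (edgeR adjusted p = 2.66e-12) and 0.99 ± 0.0535 against S2-020 (edgeR adjusted p = 1.08e-11). The antisense RNA gene B3GALT5-AS1 was listed in the same order of lines, at 57.9 ± 4.64, 10.6 ± 0.728 and 16.6 ± 1.66 CPM (SD, n = 3) for S2-007, S2-020, then S2-028. In the annotation, 0% of the exon bases of the canonical B3GALT5 transcript lie under an exon of another gene on either strand.

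Type 1 chains compete with type 2 chains, which carry Lewis X instead and are made by B4GALT1 and some of its relatives. B4GALT1 was at 94.1 ± 2.70 CPM (SD, n = 3) in S2-007, 131 ± 4.45 in S2-020 and 104 ± 8.04 in S2-028. Of the counts of B3GALT5 and B4GALT1 together, B3GALT5 held 80.7 ± 0.584% in S2-007, 41.3 ± 0.398% in S2-020 and 63.9 ± 2.59% in S2-028. No library of one line reached the range of another in this share. The order of lines was the same over B4GALT1 to B4GALT6 together, at 39.0 ± 0.741, 15.5 ± 0.108 and 27.7 ± 1.70%. Against B4GALT5 alone, S2-007 (53.7 ± 2.01%) and S2-028 (56.9 ± 2.40%) overlapped, above S2-020 (43.3 ± 0.352%). These partners were chosen after their values were seen. Each share is of counts, without regard to transcript length or enzyme activity. How far B4GALT5 and the other relatives make type 2 chains in these cells was not measured, so the wider shares are not shares of type 1 against type 2.

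ST3GAL3 caps the galactose of type 1 chains with sialic acid and is among the sialyltransferases assigned to sialyl Lewis A (chr1:43707536-43931159). Its level was 12.7, 12.6 and 12.4 CPM in S2-007. It was 20.5, 18.2 and 21.5 CPM in S2-020. It was 8.42, 9.86 and 6.35 CPM in S2-028. S2-020 was thus highest and S2-028 lowest, with no overlap of lines. The log2 fold change was 0.67 ± 0.0912 for S2-020 against S2-007 (edgeR adjusted p = 4.16e-06) and -1.30 ± 0.133 for S2-028 against S2-020 (edgeR adjusted p = 1.34e-07). For S2-028 against S2-007 it was -0.59 ± 0.139 (edgeR adjusted p = 0.00192), which just met the fold threshold. It fell under the threshold without S2-028 replicate 3 (-0.43), S2-007 replicate 1 (-0.58) or S2-007 replicate 2 (-0.58), and with no filter on low counts (-0.58).

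ST3GAL4 sialylates galactose mostly on type 2 chains and O-glycans (chr11:126355686-126414638). Its level was 42.9, 45.8 and 55.2 CPM in S2-007. It was 47.6, 49.6 and 47.1 CPM in S2-020. It was 28.9, 26.3 and 29.2 CPM in S2-028. S2-007 and S2-020 overlapped, and all S2-028 libraries lay below both. S2-028 was lower than S2-007 by a log2 fold change of -0.74 ± 0.0886 (edgeR adjusted p = 6.90e-07) and lower than S2-020 by -0.78 ± 0.0707 (edgeR adjusted p = 2.31e-08). The difference between S2-020 and S2-007 was 0.0035 ± 0.0779 (edgeR adjusted p = 0.982).

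ST3GAL6 also sialylates galactose and is best known for type 2 chains (chr3:98732262-98795852). Its level was 6.51, 6.57 and 4.36 CPM in S2-007. It was 2.71, 1.59 and 1.32 CPM in S2-020. It was 3.37, 2.62 and 2.94 CPM in S2-028. S2-007 lay above both other lines, and S2-020 and S2-028 overlapped. The log2 fold change against S2-007 was -1.63 ± 0.236 for S2-020 (edgeR adjusted p = 9.54e-06) and -0.94 ± 0.191 for S2-028 (edgeR adjusted p = 0.000447). S2-028 was called above S2-020, at 0.66 ± 0.249 (edgeR adjusted p = 0.0417). That call was lost when S2-028 replicate 1 or 3, or S2-020 replicate 2 or 3, was left out, with values of 0.46 to 0.68 and adjusted p of 0.0672 to 0.193.

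ST6GALNAC6 adds a further sialic acid to the N-acetylglucosamine of the sialylated type 1 chain, which gives disialyl Lewis A, a form found on normal epithelium (chr9:127885321-127906616). Its level was 21.2, 23.9 and 22.3 CPM in S2-007. It was 41.4, 37.4 and 40.1 CPM in S2-020. It was 16.7, 18.01 and 18.5 CPM in S2-028. The lines did not overlap, and S2-020 stood highest. The log2 fold change was 0.82 ± 0.0733 for S2-020 against S2-007 (edgeR adjusted p = 1.40e-08) and -1.17 ± 0.0798 for S2-028 against S2-020 (edgeR adjusted p = 3.82e-10). It was -0.31 ± 0.0918 for S2-028 against S2-007 (edgeR adjusted p = 0.0102), short of the fold threshold.

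In the annotation, 99.5% of the exon bases of ST6GALNAC6 are also exons of a readthrough gene on the same strand. The count table lists the readthrough ST6GALNAC4-ST6GALNAC6-AK1 as a gene of its own, with 48.4 ± 1.66, 54.7 ± 4.61 and 30.4 ± 0.837 CPM (SD, n = 3) for S2-007, S2-020, then S2-028. The split of reads between them is uncertain. Exons of ST3GAL3 lie 86.6% under an annotated readthrough of the same strand, so its level may be uncertain too. FUT5 lies 82.7% under another such gene. Whether these overlapping genes took reads from ST3GAL3 and FUT5 in the counting was not tested.

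FUT3 is the Lewis fucosyltransferase, which adds the fucose that completes sialyl Lewis A (chr19:5842888-5857122). Its counts were 66, 31 and 46 in the S2-007 libraries, or 0.902, 0.424 and 0.623 CPM. They were 11, 15 and 19 in S2-020, or 0.152, 0.178 and 0.262 CPM. They were 248, 208 and 310 in S2-028, or 4.01, 3.22 and 5.06 CPM. The lines did not overlap, and the lowest S2-028 library stood above all S2-007 and S2-020 libraries. S2-028 had 6.40-fold the level of S2-007, a log2 fold change of 2.68 ± 0.277 (edgeR adjusted p = 8.42e-08). S2-028 had 20.5-fold the level of S2-020, a log2 fold change of 4.36 ± 0.294 (edgeR adjusted p = 3.20e-10). S2-020 was below S2-007 at -1.71 ± 0.491 (edgeR adjusted p = 0.00803), and without S2-007 replicate 1 this was -1.39 with an adjusted p of 0.0826. The counts of S2-020 and S2-007 were low, which limits the precision of that last difference.

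FUT5 can make both Lewis A-type and Lewis X-type linkages in vitro and is little expressed in most tissues (chr19:5865826-5870540). It had 12 to 17 counts in S2-007, 10 to 17 in S2-020 and 8 to 12 in S2-028. No comparison called it, and its log2 fold changes were -0.36 ± 0.710, -0.14 ± 0.681 and -0.25 ± 0.715 in the order S2-028 against S2-007, S2-020 against S2-007 and S2-028 against S2-020. At these counts a difference of the size of its SE was not detectable.

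FUT6 fucosylates type 2 chains and so makes sialyl Lewis X rather than sialyl Lewis A (chr19:5830408-5839702). Its level was 1.85, 2.17 and 1.57 CPM in S2-007. It was 1.32, 1.27 and 1.01 CPM in S2-020. It was 1.31, 2.09 and 1.55 CPM in S2-028. S2-028 overlapped both other lines, and S2-020 lay below S2-007 without overlap. S2-020 against S2-007 was called, at -0.64 ± 0.243 (edgeR adjusted p = 0.0441). The call was lost when any of S2-020 replicates 1, 2 and 3 or S2-007 replicates 1 and 2 was left out, with adjusted p up to 0.193, and under 6 of the other settings tried. S2-028 against S2-007 gave -0.15 ± 0.254 (edgeR adjusted p = 0.738) and S2-028 against S2-020 gave 0.46 ± 0.268 (edgeR adjusted p = 0.203).

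FUT3 made up a larger part of the counts of the gene trio in S2-028 than in the other lines. Its share of the counts of FUT3, FUT5 and FUT6 was 24.0 ± 7.84% (SD, n = 3) in S2-007, 12.8 ± 4.74% in S2-020 and 69.1 ± 9.11% in S2-028. The S2-028 libraries, at 58.6 to 75.1%, stood apart from those of S2-007, at 15.2 to 30.3%, and S2-020, at 8.94 to 18.1%. Those of S2-007 and S2-020 overlapped. Because the genes are so alike, reads can be assigned to the wrong copy. Of all 31-base words in the reference transcript of FUT3, 24.7% occur in genes elsewhere, and the share was 29.2% for FUT5 and 20.5% for FUT6. The readthrough gene that overlaps FUT5 holds 82.4% of the FUT5 words and 20.6% of the FUT3 words. With the counts of the trio summed before the fit, S2-028 was above S2-007 by 1.15 ± 0.177 on the log2 scale (edgeR adjusted p = 1.97e-05) and above S2-020 by 1.90 ± 0.182 (edgeR adjusted p = 4.85e-08). S2-020 was below S2-007, at -0.78 ± 0.208 (edgeR adjusted p = 0.00456). The summed counts are free of exchange within the trio, though not with the readthrough gene, and all 3 differences were called.

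**Figure D3:**
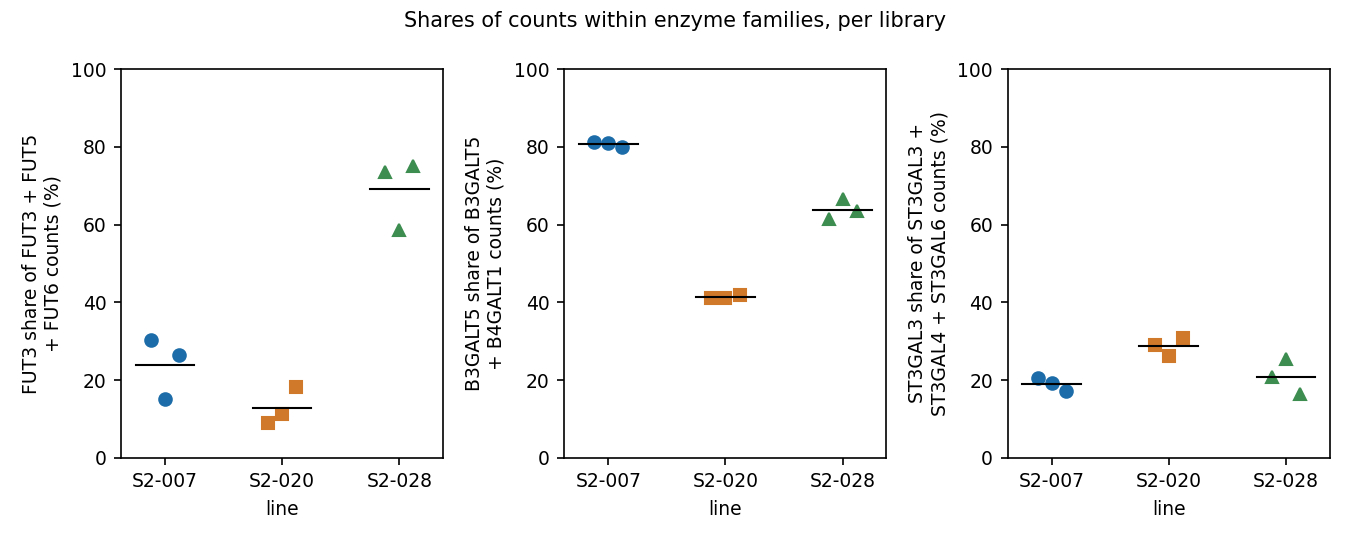
Shares of counts within enzyme groups, in percent, for each library, with black bars at the mean of the 3 libraries of a line. FUT3 held 58.6 to 75.1% of the FUT3, FUT5 and FUT6 counts in S2-028 and at most 30.3% elsewhere, and B3GALT5 held 80.0 to 81.2% of the B3GALT5 and B4GALT1 counts in S2-007. The ST3GAL3 share of the ST3GAL3, ST3GAL4 and ST3GAL6 counts was 26.2 to 30.8% in S2-020.

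FUT2, the secretor enzyme, puts fucose on the galactose of a type 1 chain and so leads away from sialyl Lewis A, towards Lewis B (chr19:48695971-48705951). Its level was 14.4, 14.4 and 13.2 CPM in S2-007. It was 1.68, 1.51 and 2.16 CPM in S2-020. It was 14.3, 13.5 and 12.1 CPM in S2-028. S2-007 and S2-028 overlapped, and S2-020 lay far below both. The log2 fold change was -2.98 ± 0.147 for S2-020 against S2-007 (edgeR adjusted p = 1.60e-12) and 2.89 ± 0.156 for S2-028 against S2-020 (edgeR adjusted p = 1.09e-11). S2-028 against S2-007 was -0.052 ± 0.107 (edgeR adjusted p = 0.784). For each FUT3 count there were 23.7 ± 9.21 FUT2 counts (SD, n = 3) in S2-007, 9.24 ± 1.52 in S2-020 and 3.37 ± 0.911 in S2-028. The lines did not overlap in this ratio, which ranged from 16.0 to 33.9, 8.26 to 11.0 and 2.38 to 4.18.

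Most of the epithelial markers were lower in S2-020, as were B3GNT3, B3GALT5, FUT2 and FUT3, while ST3GAL3 and ST6GALNAC6 were higher there. Against S2-007, 6 of the 8 markers were called lower in S2-020 and none higher, with a median log2 fold change of -2.14. SOX9 went the other way, at 0.52, short of the fold threshold. In S2-028 against S2-020, 6 markers were higher and 1 was lower, with a median of 1.67. In S2-028 against S2-007, 4 were higher and 1 was lower, with a median of 0.63. Of all genes, 21.6%, 22.2% and 18.4% were called in these comparisons, in the order given. The part of the markers in the levels of the enzymes was not tested.

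Levels were compared between genes as mean CPM per kilobase of the canonical transcript. In S2-007, B3GALT5 was first at 30.1 ± 0.896 (SD, n = 3), followed by ST3GAL4 at 26.5 ± 3.54 and B3GNT3 at 23.1 ± 0.687. Neighbours in that order overlapped, so B3GALT5 and ST3GAL4, and ST3GAL4 and B3GNT3, did not differ beyond their spread. In S2-020, ST3GAL4 led at 26.6 ± 0.723, ahead of ST6GALNAC6 at 16.5 ± 0.839 and ST3GAL3 at 8.91 ± 0.758. B3GALT5, at 7.01 ± 0.126, and B3GNT3, at 4.97 ± 0.541, came after them. In S2-028, B3GNT3 led at 19.8 ± 1.47, ahead of ST3GAL4 at 15.6 ± 0.876 and B3GALT5 at 14.01 ± 0.503, and the last pair overlapped.

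FUT3 took rank 9 of this order in S2-007, 10 in S2-020 and 7 in S2-028. Its CPM per kilobase was 0.253 ± 0.0937 in S2-007, where only FUT5 was lower. It was 0.0770 ± 0.0223 in S2-020, the lowest of the 10, although it overlapped FUT5 at 0.0894 ± 0.0293. It was 1.60 ± 0.360 in S2-028, above ST3GAL6, FUT6 and FUT5. With the length of all annotated exons in place of the canonical transcript, ST3GAL4 took rank 3 in S2-007 and S2-028, and ST3GAL3 took ranks 7 and 8 there. In S2-020, ST3GAL4 and ST6GALNAC6 still led, and ST3GAL3 took rank 5, at 1.03 ± 0.0878, below B3GALT5 at 6.29 ± 0.113 and B3GNT3 at 4.83 ± 0.526. FUT3 took rank 6 in S2-028, at 1.32 ± 0.297. The canonical transcripts of ST3GAL3, ST3GAL4, ST3GAL6 and ST6GALNAC6 have 12, 11, 10 and 7 exons, and those of the other 6 genes have 2 to 4. The aligner named, BWA, does not join reads across introns, and its part in these orders was not tested.

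Each enzyme was set beside the 50 tested genes nearest to it on the chromosome, with the other enzymes of the set left out. FUT5 and FUT6 are thus not among the neighbours of FUT3. Around FUT3 the median log2 fold change was -0.0015, 0.090 and -0.12 in S2-028 against S2-007, S2-020 against S2-007 and S2-028 against S2-020, beside 2.68, -1.71 and 4.36 for FUT3. Around FUT2 it was 0.33 for S2-020 against S2-007, where FUT2 stood at -2.98. Around B3GNT3 it was 0.0096 in that comparison, beside -2.22.

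Around B3GALT5 the median for S2-020 against S2-007 was -0.40, in the direction of the enzyme itself at -2.10, with 15 of the 50 genes called lower and 1 higher. Around ST6GALNAC6 it was -0.41, with 19 called lower and 1 higher, while ST6GALNAC6 was at 0.82. Of all genes in that comparison, 12.1% were called lower and 9.57% higher. The neighbours spanned 5.38 megabases around B3GALT5 and 1.32 around ST6GALNAC6. Around ST3GAL6 the median was 0.47 for S2-028 against S2-007, over 8.73 megabases, and ST3GAL6 was at -0.94. Copy number was not measured here.

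**Figure D4:**
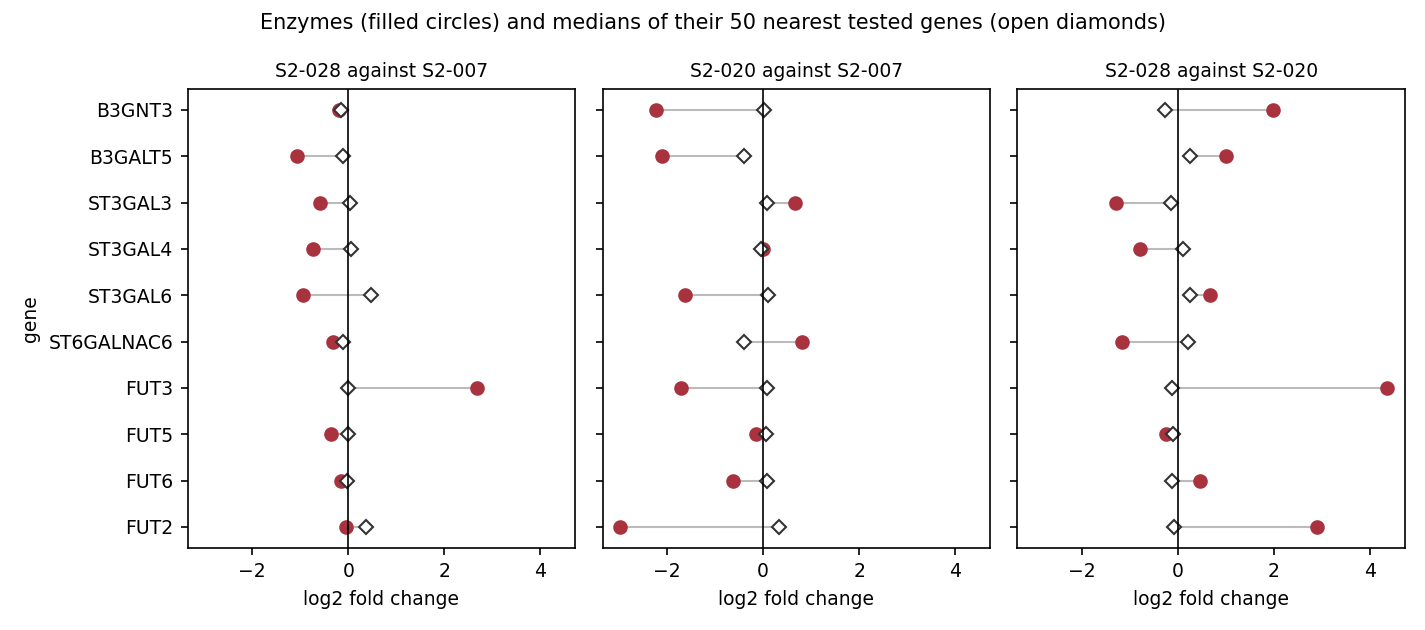
Log2 fold change of each enzyme (filled) and the median of its 50 nearest tested genes, other enzymes of the set left out (open), in the 3 comparisons. The medians lie between -0.41 and 0.47, while FUT3 lies at 2.68, -1.71 and 4.36.

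The bases before an annotated start of FUT3, FUT2, B3GNT3 and B3GALT5 are shown, because these genes had the widest spread between lines. Promoter sequences from RefSeq (GRCh38.p14) were at hand for 9 of the 10 genes, all but FUT5. Only the longest stretch free of annotated exons within 250 bases upstream is given, in the direction of the gene. The FUT3 stretch is chr19:5851472-5851699 on the minus strand, and that of FUT2 is chr19:48695721-48695970 on the plus strand. The B3GNT3 stretch is chr19:17794888-17795135 and that of B3GALT5 is chr21:39642146-39642384, both on the plus strand. The FUT3 and B3GNT3 stretches precede the start of the canonical transcript and lie inside the gene span given above, since other transcripts start further upstream. The B3GALT5 stretch belongs to its second, internal start, because exons cover nearly all bases before the first. Capitals mark 3 motifs searched on both strands and chosen after the levels of the genes were known: CAGGTG, the E-box form bound by SNAI and ZEB factors, GGGCGG, the core of a GC box, and TATAAA, the TATA box.
FUT3: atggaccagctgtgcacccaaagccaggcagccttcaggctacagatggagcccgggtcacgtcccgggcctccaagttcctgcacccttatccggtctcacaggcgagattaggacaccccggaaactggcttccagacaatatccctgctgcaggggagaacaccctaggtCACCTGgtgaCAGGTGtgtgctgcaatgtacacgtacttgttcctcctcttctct
FUT2: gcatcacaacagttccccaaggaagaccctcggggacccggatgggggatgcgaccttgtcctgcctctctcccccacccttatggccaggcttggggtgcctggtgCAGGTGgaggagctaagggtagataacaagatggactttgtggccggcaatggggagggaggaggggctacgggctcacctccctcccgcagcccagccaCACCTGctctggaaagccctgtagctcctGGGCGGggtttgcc
B3GNT3: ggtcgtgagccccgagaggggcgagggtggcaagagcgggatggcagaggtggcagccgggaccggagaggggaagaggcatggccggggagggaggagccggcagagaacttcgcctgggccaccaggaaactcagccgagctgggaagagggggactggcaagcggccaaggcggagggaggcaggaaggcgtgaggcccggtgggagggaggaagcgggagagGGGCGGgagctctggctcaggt
B3GALT5: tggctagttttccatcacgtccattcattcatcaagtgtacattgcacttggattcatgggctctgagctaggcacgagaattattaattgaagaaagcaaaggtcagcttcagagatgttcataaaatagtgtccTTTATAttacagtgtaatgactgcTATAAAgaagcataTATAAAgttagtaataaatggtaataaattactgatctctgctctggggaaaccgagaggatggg

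The FUT3 and FUT2 stretches each held 2 copies of CAGGTG or its complement, and the other 2 held none. The stretches of FUT3, FUT2, B3GNT3 and B3GALT5 held 228, 250, 248 and 239 bases, and a motif across a cut end was not counted. The B3GNT3 stretch ends in caggt, and the bases after it were not searched. FUT2 and B3GNT3 held GGGCGG once each. The B3GALT5 stretch held TATAAA or its complement 3 times and was 36.4% G and C over its 250-base window, beside 59.2% for FUT3, 64.0% for FUT2 and 70.4% for B3GNT3. Of 35116 promoter windows of 250 bases, 17.5% held CAGGTG on either strand at least once, 42.6% held GGGCGG and 10.7% held TATAAA. These are whole windows, exons included, so the shares are not strictly like the stretches. A match describes the letters only, and binding was not measured.

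The rest of the pathway was read from 8 lists of 88 genes in all. Of these, 39 of 85 tested were called in S2-028 against S2-007 (23 higher and 16 lower), 34 of 86 in S2-020 against S2-007 (12 higher and 22 lower) and 33 of 86 in S2-028 against S2-020 (22 higher and 11 lower). Those were 45.9%, 39.5% and 38.4%, beside 18.4%, 21.6% and 22.2% of all genes. The median log2 fold change of the 88-gene set was -0.075, -0.15 and 0.071, beside 0.0020, -0.053 and 0.025 for all genes.

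Among 7 other fucosyltransferases, 3 were higher in S2-028 than in S2-007 and none was lower. These were FUT8, the core fucosyltransferase of N-glycans, at 120 against 25.5 CPM (log2 fold change 2.26, edgeR adjusted p = 2.03e-16), FUT9, which makes Lewis X, at 2.93, and FUT1, which makes the H antigen, at 1.49. The same 3 were higher in S2-028 than in S2-020, at 2.27, 3.18 and 2.14. In S2-020 against S2-007 only FUT1 was called, at -0.68. The shares called in S2-028 against S2-007, S2-020 against S2-007 and S2-028 against S2-020 were 42.9%, 14.3% and 42.9%. Those of all genes were 18.4%, 21.6% and 22.2%.

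Among 15 further galactosyl- and N-acetylglucosaminyltransferases of type 1 and type 2 chains, 14 were tested. In S2-028 against S2-007, 2 were higher and 4 lower, among them B4GALT4 at 1.34 and B4GALT5 at -1.26. In S2-020 against S2-007, 1 was higher and 6 were lower, with B4GALT4 at 1.16, B4GALT5 at -1.50 and B3GNT5, which starts the lacto-series of glycolipids, at -2.19. In S2-028 against S2-020, 2 were higher and 1 was lower, with B3GNT5 at 1.48. The shares called were 42.9%, 50% and 21.4% in the 3 comparisons, beside 18.4%, 21.6% and 22.2% of all genes.

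Among 11 other sialyltransferases and related enzymes, 2 were higher and 4 lower in S2-028 against S2-007. ST6GAL1, which caps type 2 chains of N-glycans, was higher at 3.55 (12.5 against 1.09 CPM), and ST3GAL2 was lower at -1.69. In S2-020 against S2-007 there were again 2 higher and 4 lower, with ST3GAL5, the GM3 synthase, at -3.27. In S2-028 against S2-020, 4 were higher and 2 lower, with ST3GAL5 at 2.41 and ST3GAL2 at -2.12. The share called was 54.5% in each comparison, beside 18.4%, 21.6% and 22.2% of all genes.

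Among 18 enzymes of O-glycan cores, 9 were higher and 2 lower in S2-028 against S2-007. GCNT3, which makes the core 2 and core 4 branches of mucins, stood at 4.67 against 129 CPM (log2 fold change -4.76, edgeR adjusted p = 1.23e-18). GALNT5, which starts O-glycans, stood at 12.1 against 191 CPM (-3.94). Among those higher in S2-028 were GALNT7, which extends O-glycan initiation on mucins, at 217 against 69.3 CPM (1.67), and GALNT3, another initiating enzyme, at 44.9 against 11.8 CPM (1.96). GCNT3 and GALNT5 were also lower in S2-020 than in S2-007, at -5.31 and -4.81. In that comparison 5 genes of the list were higher and 4 lower. In S2-028 against S2-020, 6 were higher and 3 lower, with GALNT3 at 2.79 and GALNT10 at -1.38. The shares called were 61.1%, 50% and 50% in the 3 comparisons, beside 18.4%, 21.6% and 22.2% of all genes.

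The supply of GDP-fucose and CMP-sialic acid held 2 called genes of 11 in each comparison, or 18.2%, near the share of all genes. SLC35C1, the GDP-fucose transporter of the Golgi, was at 74.1 ± 3.80 CPM (SD, n = 3) in S2-007, 35.1 ± 2.00 in S2-020 and 30.4 ± 1.69 in S2-028. It was lower in S2-028 and S2-020 than in S2-007, at -1.26 and -1.08. GNE, the entry enzyme of sialic acid synthesis, was at 195 ± 12.3, 151 ± 17.1 and 81.7 ± 6.77 CPM, and was lower in S2-028 than in S2-007 (-1.23) and S2-020 (-0.90). Among 11 genes of UDP-galactose and UDP-N-acetylglucosamine supply, 2, 3 and 3 were called. Those were 18.2%, 27.3% and 27.3%, near the 18.4%, 21.6% and 22.2% of all genes.

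Of 6 sialidases and fucosidases, 4, 5 and 5 were tested and 2, 1 and 1 were called, all higher in the first line of the comparison. Those were 50%, 20% and 20% of the genes tested, beside 18.4%, 21.6% and 22.2% of all genes. In the last 2 comparisons the list was thus near the share of all genes. FUCA2, a fucosidase, was higher in S2-028 and S2-020 than in S2-007, at 0.82 and 0.84. Of 9 mucins that can carry the antigen, 7 were called in S2-028 against S2-007 (4 higher and 3 lower), 5 in S2-020 against S2-007 (0 higher and 5 lower) and 6 in S2-028 against S2-020 (5 higher and 1 lower). Those were 77.8%, 55.6% and 66.7% of the mucins, beside the same shares of all genes. The median log2 fold change of the mucins was -0.51, -1.44 and 1.85. MUC13, a membrane mucin, was at 6.91 ± 0.441 CPM (SD, n = 3) in S2-007, 1.07 ± 0.657 in S2-020 and 0.0951 ± 0.0613 in S2-028, and was lower in S2-028 than in S2-007 (edgeR adjusted p = 8.68e-13). MUC5AC, a secreted mucin, was at 2.66 ± 0.721 CPM in S2-007, 2.71 ± 0.985 in S2-020 and 10.8 ± 2.92 in S2-028. MUC1, a membrane mucin, was at 26.2 ± 6.69, 5.56 ± 1.05 and 16.8 ± 4.22 CPM, and was lower in S2-020 than in S2-007 by a log2 fold change of -2.23.

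The genes most like each enzyme were those with the smallest root mean square distance of log2 CPM over the 9 libraries, each gene centred on its own mean, among 16887 genes. It was computed for the 9 enzymes called at least once, all with a mean of at least 1 CPM. Nearest to FUT3 were DOK7, at a distance of 0.23 on the log2 scale, H2AC18 at 0.36 and BICDL2 at 0.36. Nearest to B3GALT5 were ALS2CL at 0.059, EPB41L4B at 0.078 and KCNC4 at 0.085. Nearest to B3GNT3 were SERINC2, ATP8B1 and FAM83H, at 0.12 each. Nearest to FUT2 were GUCY1A1 at 0.15, NECTIN1 at 0.17 and MTARC1 at 0.18. Nearest to ST6GALNAC6 were FBXO31 at 0.060, NPHP4 at 0.077 and DKK1 at 0.080. Nearest to ST3GAL3 were DCUN1D2, GPCPD1 and PLA2G15, at 0.13 each. Nearest to ST3GAL4 were S100A16 at 0.056, WSB2 at 0.077 and ARF1 at 0.083. ST3GAL6 had MEIS2 at 0.25, DAPK1 at 0.26 and LOC124903318 at 0.26. FUT6 had the loci LOC101927764 at 0.098, LOC124901731 at 0.098 and LOC105379263 at 0.11. With 3 lines, a small distance mostly means the same order and size of line means.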

How the data were processed

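RNA from 3 libraries per subline was sequenced as strand-specific poly(A) libraries. Per the submitters' processing notes, Trimmomatic 0.39, BWA 0.7.17 and SAMtools 1.12 were used with GRCh38.p14, and edgeR 3.16.5. The counting tool and its treatment of strand and of reads with several matches are not given in the sources used here. The authors deposited whole-number counts per gene, used here as deposited, and 18 columns of normalized signal, which were not used. Another 2 entries at its end carry no gene name and were left out. Among genes with 1 to 20 counts, 74.6 to 76.1% of counts were even in each library, so a count may not be an independent molecule. The floor of 3 counts covers counting error only.

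The quasi-likelihood test (glmQLFit and glmQLFTest) of edgeR 4.0.16 under R 4.3.3 was run after filterByExpr (count at least 10, total at least 15) and TMM scaling, in a fit of the 6 libraries of each pair of lines. The Benjamini-Hochberg adjustment covered all genes tested. The script was tested on simulated counts. Libraries were assigned to lines by their labels. Nothing in the labels says that the 3 libraries of a line came from separate cultures, so p-values measure only the spread between these libraries, which may be technical. The chi-square statistic per gene was 7.95 to 21.5 between libraries of one line and 205 to 311 between lines, so none was a copy of another. This statistic cannot tell separate cultures from repeat preparations of the same RNA. The labels name no batch.

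The enzymes, pathway lists, markers and tests were chosen with earlier results of these data known. The text names all 10 enzymes, from each pathway list at most the 4 genes with the smallest adjusted p among those called in a given comparison, not all of which are printed, and the 3 genes nearest to each enzyme called at least once with a mean of at least 1 CPM. Of the gene identifiers, 42539 (99.6%) matched the RefSeq gene table of GRCh38.p14, which gave gene coordinates. Transcripts, lengths and exons came from GENCODE on GRCh38, and word sharing was counted with 31 bases. Alternatives were DESeq2 1.42.0, RLE size factors, other filters, other thresholds, 1 fit of all 9 libraries, a replicate block, the summed FUT3, FUT5 and FUT6 counts, and leaving out each library.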

Additional observations from a re-analysis of the deposited data

How the results depend on the processing

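The number of genes called moved by more than 1.5 times under 2 settings. With a test against a 1.5-fold change it was 2977, 3639 and 3638 in S2-028 against S2-007, S2-020 against S2-007 and S2-028 against S2-020, and with the adjusted p alone it was 8927, 10708 and 10517, against 4858, 5769 and 5788 as reported. The enzymes called in S2-028 against S2-007 fell from 5 to 2 under the test against a 1.5-fold change, where FUT3 and B3GALT5 remained. Leaving out 1 library at a time gave 4642 to 4828, 5488 to 5791 and 5507 to 5724 genes, and 4 to 5, 6 to 8 and 7 to 8 enzymes.

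Of the values of single enzymes under an alternative, 390 kept their direction and their side of the threshold, 25 were weaker, 2 stronger and 10 reversed. All reversed values belonged to differences that were not called. The fold change of FUT2 in S2-028 against S2-007 became 0.011 without S2-028 replicate 3 (range over single left-out libraries -0.11 to 0.011). FUT5 and FUT6 in S2-028 against S2-007 became 1.15 when the trio was summed, and FUT5 in S2-028 against S2-020 became 1.90. FUT5 in S2-020 against S2-007 became 0.085 without S2-020 replicate 2 and 0.010 without S2-007 replicate 1 (range -0.39 to 0.085). ST3GAL4 in S2-020 against S2-007 became -0.0087 with at least 10 counts in every library, -0.019 without S2-020 replicate 2, -0.063 without S2-007 replicate 1 and -0.018 without S2-007 replicate 2 (range -0.063 to 0.15). Apart from the summed trio, whose value holds the FUT3 counts, the cause was not tested.

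The replicate numbers did not pair the libraries. The correlation of deviations between libraries of the same number lay between -0.0206 and 0.0145, and 2 of 9 libraries correlated best with their own number. Among the enzymes, the replicate block ended 1 call, that of FUT6 in S2-020 against S2-007 (-0.63, edgeR adjusted p = 0.0535). Counts of 8 to 19 limit FUT5 in all lines and FUT3 in S2-020. DESeq2 and RLE size factors moved the median of all genes by less than 0.1 on the log2 scale.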

Other observations

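Both selectins that can bind the antigen were among the endothelial markers, and their levels are given here as values. SELP, which encodes P-selectin, a receptor of platelets and endothelium, had 4578 to 8346 counts in the S2-007 libraries, 0 to 25 in S2-020 and 5061 to 6231 in S2-028. Its mean level was 87.1, 0.186 and 91.7 CPM, and it was lower in S2-020 than in S2-007 (edgeR adjusted p = 5.14e-15, lower in 3 of 3 libraries). SELE, which encodes E-selectin, had 24 to 50, 0 to 10 and 14 to 34 counts. The endothelial markers VWF and CDH5 did not exceed 60 and 18 counts in any library, and PECAM1 had 319 to 717.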
